A study of Mus musculus with 30 samples.

Results

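The endothelial genes described here are a list of 35 gene names, most of them markers of the cells lining blood and lymphatic vessels, read from the probe sets that the array annotation assigns to them. The rule for membership is the name and uses no measured value, but the list was drawn up with earlier results of these data known. Erbb3 is better known from neural crest and Schwann cells, so it is reported as a member of the list and not as an endothelial marker. Counts of endothelial genes include it. Over the 30 arrays its level ran against the mean of 8 core endothelial genes (Pearson r = -0.71). That of Clec14a did so too (r = -0.73), so this value does not set Erbb3 apart. Eng and Lmo2 are made by mesenchyme too. All 35 had a probe set, and 34 of them were bright enough to be tested among 15136 genes. Ushbp1, which encodes a cytoplasmic protein, was the exception, with levels between 4.07 and 4.39 on every array, at the floor of the scale. Levels are given throughout as log2(signal + 16), for which a signal of 0 equals 4, and for a gene with several probe sets the brightest was used. Because 16 is added to every signal, differences between dim genes are understated on this scale.

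The cells came from limb buds of CD-1 mouse embryos, staged E10.5 in the sample labels but E11.5 in their growth protocol, and were plated as dense spots (micromass), a culture in which limb mesenchyme forms cartilage. The labels name 3 populations: early (distal hindlimb), intermediate (distal forelimb) and late (proximal forelimb). Each was sampled at day 0 and then on days 1 and 2, either in control medium or after BMP4, a bone morphogenetic protein, had been given at 20 ng/ml from the start. No group carried a genetic change, the medium of all groups contained serum, and each of the 15 groups had 2 arrays, which the labels call biological replicates. RNA came from pooled cultures of about 280 embryos. Where the labels do not say how the embryos were divided between replicates, p-values measure the spread between these samples. The labels call all cells mesenchymal, and digestion and straining are the purification steps they give. At day 0 the arrays also held RNA of other cells, with a summed signal of 10 red blood cell markers between 7515 and 18449. The 8 limb mesenchyme markers summed to 7394 to 10810 on the same arrays.

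Endothelial cells of the early limb form a plexus within the mesenchyme, which guides it with secreted signals. VEGF ligands act on the receptor tyrosine kinases Kdr and Flt1, and angiopoietins act on Tek with its partner Tie1. ETS and SOXF transcription factors set the endothelial program, and VE-cadherin (Cdh5), claudin 5 (Cldn5) and PECAM-1 (Pecam1) hold the cells together. In a bulk sample, fewer endothelial cells and less RNA of these genes per cell cannot be told apart.

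Replicate 2 of day 0 stood apart from replicate 1 in all 3 populations. In the libraries labelled early and intermediate, the hindlimb factor Pitx1 and the forelimb factor Tbx5 went against the label on replicate 2, and in the library labelled late the proximal factor Meis2 did so (7.53 on replicate 2 against 9.60 on replicate 1). The mean level of 8 core endothelial genes (Pecam1, Cdh5, Tie1, Tek, Kdr, Esam, Cldn5 and Emcn) was 6.84, 6.68 and 6.84 on replicate 1 of the early, intermediate and late populations, and 6.09, 6.05 and 6.18 on replicate 2. Of the 35 endothelial genes 24 were higher on replicate 1 in all 3 populations and 1 was lower, while 12.9% of all genes tested were higher on replicate 1 in this way. The summed signal of red blood cell markers moved alike, from 17162 to 18449 on replicate 1 and from 7515 to 9366 on replicate 2. The part of these differences in the results was not tested beyond leaving out either set of 3 arrays, and the comparisons with day 0 are given with and without them. A mean over the 3 populations weights the 6 day 0 arrays alike, whichever limb region each came from.

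**Figure D1:**
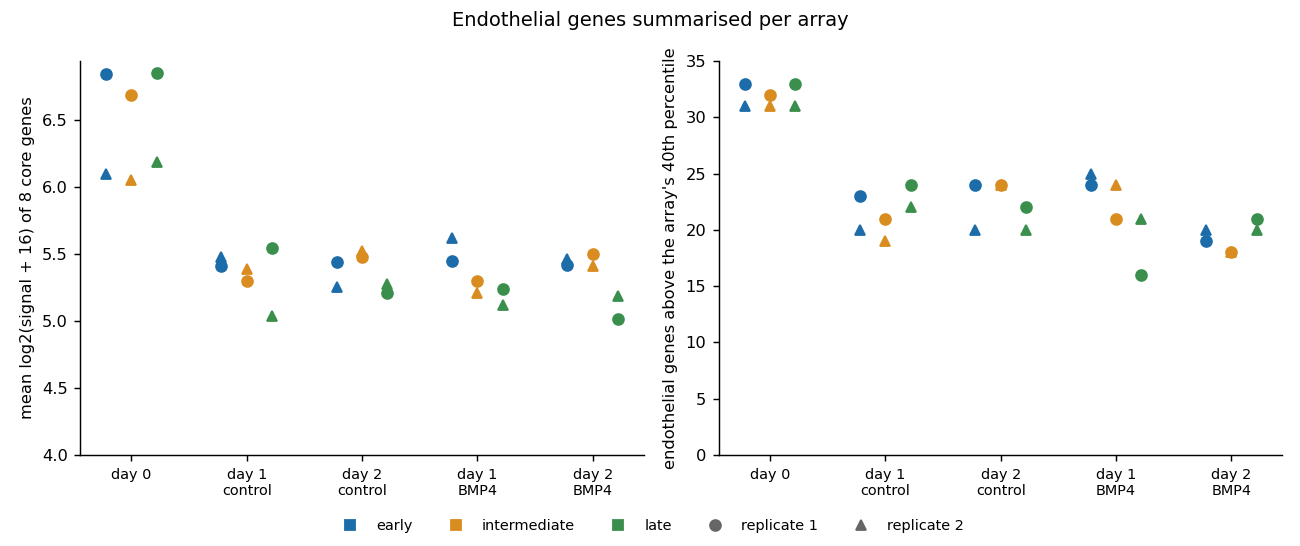
Left, the mean log2(signal + 16) of 8 core endothelial genes on each of the 30 arrays. Right, the number of the 35 endothelial genes whose signal was above the array's own 40th percentile. Colours are populations and symbols are replicates. Day 0 arrays lie above all others in both panels, with 31 to 33 genes against 16 to 25, and replicate 2 of day 0 lies below replicate 1 on the left.

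At day 0 nearly all of the endothelial genes were measurable. The summed signal of the 35 genes was 2158 to 3936 with a median of 3015, and it was 1642 to 1970 with a median of 1688 in day 1 control cultures. At day 0 between 31 and 33 of them exceeded the 40th percentile of their own array, a signal of 22.6 to 29.3 on these 6 arrays. In control cultures this number was 19 to 24 at day 1 and 20 to 24 at day 2. With BMP4 it was 16 to 25 at day 1 and 18 to 21 at day 2. Plvap exceeded that percentile on all 6 day 0 arrays and Tie1 on 2 of them, and neither did so on any of the 24 culture arrays. Icam2, Plvap and Rasip1 exceeded it on at least 5 day 0 arrays and on 0 of the 12 control arrays of days 1 and 2. A gene was tested when it exceeded the percentile on at least 2 arrays, and Plvap, Tie1 and Icam2 met that only through day 0. For these 3 a fall from day 0 was fixed by the filter, so their differences are descriptions.

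The first question was what happened to these genes when the cells were put into culture. Between day 0 and day 1 of control culture, as a mean of the 3 populations, 24 of the 34 endothelial genes tested fell, 2 rose and 8 did not pass the threshold (limma across all genes, Benjamini-Hochberg adjusted p under 0.05, two-sided). Of all 15136 genes, 17% fell and 22.5% rose in that comparison. The median difference was -0.77 for the endothelial genes and 0.00 for all genes. All 7 junction and adhesion genes fell, as did 4 of 5 transcription factors, 3 of 6 receptor tyrosine kinases, 4 of 8 other receptors and surface proteins, 1 of 3 scavenger and lymphatic receptors, both secreted and matrix proteins and the 3 cytoplasmic proteins tested. These counts include Plvap, Tie1 and Icam2. On 15 genes, Plvap among them, all 6 day 0 arrays lay above all 6 day 1 control arrays, and on 2 genes they lay below. Of all genes 8.82% lay above and 13.3% lay below in this way.

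Without the doubted replicate 2 arrays of day 0, 25 endothelial genes fell and 2 rose, with a median of -0.997. Against the replicate 2 arrays alone, 19 fell and 2 rose, with a median of -0.54. Of all genes 12.6% fell and 18.4% rose in the first case, and 13.8% and 19.6% in the second. Cdh5, for example, differed by -1.08 ± 0.15 (SE) against replicate 2 and by -2.01 ± 0.15 (SE) against replicate 1, a larger gap than either error. Of the 24 genes that fell, 23 had the larger fall against replicate 1, and in 19 it was over 1.5 times that against replicate 2. Falls of Plvap, Tie1 and Icam2, fixed by the filter, are in these counts wherever they passed. The second choice of arrays was added after seeing the data.

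**Figure D2:**
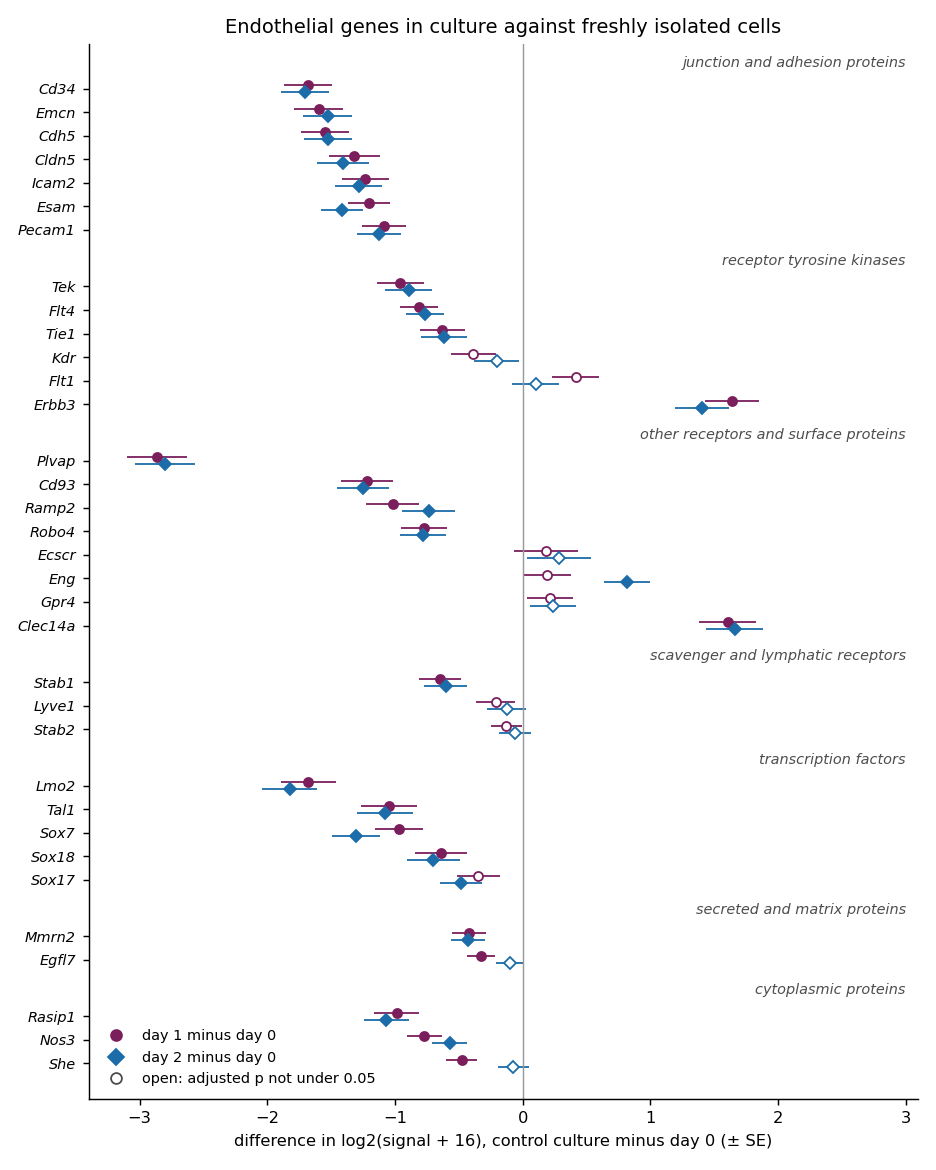
Difference in log2(signal + 16) between control cultures and day 0 for 34 endothelial genes, grouped by the role of their products. Points are means over the 3 populations, bars are standard errors from the limma fit, and open symbols did not pass the threshold. Most genes lie left of 0 on both days, with Plvap farthest left at -2.86 and -2.80, while Erbb3 and Clec14a lie to the right.

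Among the junction and adhesion genes, Cdh5, the adhesion molecule of endothelial adherens junctions, ranged from 6.24 to 7.40 with a median of 6.69 at day 0. At day 1 its control arrays ranged from 5.03 to 5.49 with a median of 5.22. The groups did not overlap, and Cdh5 fell by 1.55 on the log2 scale (SE 0.19, limma adjusted p = 1.1e-06). Its other probe set fell too, by 0.38 on the log2 scale (SE 0.11, limma adjusted p = 0.00884). Pecam1, a homophilic adhesion receptor, went from 5.71, 5.98 and 6.23 (lowest, median, highest) to 4.57, 4.79 and 5.47. That was a fall by 1.08 on the log2 scale (SE 0.17, limma adjusted p = 2.9e-05), and the 6 day 0 arrays lay above all 6 day 1 arrays.

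Cd34, a sialomucin of endothelial and blood-forming cells, had day 0 levels of 6.50 to 7.54 (median 7.07) and day 1 control levels of 4.97 to 5.76 (median 5.39). The difference of -1.68 ± 0.19 (SE) was the largest of the 7 junction and adhesion genes. Emcn, endomucin, a sialoglycoprotein of venous and capillary endothelium, went from 6.31 to 7.50 (median 6.96) to 4.73 to 5.83 (median 5.30), a difference of -1.60 ± 0.19 (SE). Against replicate 1 and replicate 2 of day 0 taken singly, the differences were -2.13 and -1.23 for Cd34 and -2.09 and -1.11 for Emcn. Cldn5, a tight junction protein, differed by -1.32 ± 0.20, Icam2, an adhesion ligand for leukocytes, by -1.23 ± 0.18 and Esam, an immunoglobulin-type junction protein, by -1.20 ± 0.16. Icam2 was the one gene of this class whose arrays overlapped, since the library labelled intermediate replicate 2 stood at 4.55 at day 0 while the other day 0 arrays stood at 5.48 to 6.11 and one day 1 array reached 4.65.

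The bases before the annotated start of 4 genes are shown because their genes moved most: Cd34, Emcn and Cldn5 fell most among genes with 1 entry in the promoter table, and Clec14a rose. Each line gives 250 bases before the start, 5' to 3' on the strand of the gene, from RefSeq on GRCm38.p6. Capitals mark CAGGAA or its reverse complement TTCCTG, a sequence that holds the GGAA core read by ETS factors.
Cd34, chr1:194938571-194938820, plus strand: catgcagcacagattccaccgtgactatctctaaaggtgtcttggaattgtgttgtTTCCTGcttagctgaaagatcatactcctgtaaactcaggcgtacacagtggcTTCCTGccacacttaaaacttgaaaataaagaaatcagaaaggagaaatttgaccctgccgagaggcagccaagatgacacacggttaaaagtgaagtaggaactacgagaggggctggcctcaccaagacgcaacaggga
Emcn, chr3:137340828-137341077, plus strand: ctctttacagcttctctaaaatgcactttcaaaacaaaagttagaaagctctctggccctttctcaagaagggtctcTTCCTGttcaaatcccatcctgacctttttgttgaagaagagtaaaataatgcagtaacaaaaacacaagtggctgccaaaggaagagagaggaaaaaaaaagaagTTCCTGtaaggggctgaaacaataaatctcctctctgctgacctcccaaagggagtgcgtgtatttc
Cldn5, chr16:18776597-18776846, plus strand: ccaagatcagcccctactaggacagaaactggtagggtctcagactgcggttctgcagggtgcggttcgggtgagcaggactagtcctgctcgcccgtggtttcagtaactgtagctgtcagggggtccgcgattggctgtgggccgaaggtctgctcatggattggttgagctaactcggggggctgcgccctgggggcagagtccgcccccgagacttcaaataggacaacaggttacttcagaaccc
Clec14a, chr12:58269259-58269508, minus strand: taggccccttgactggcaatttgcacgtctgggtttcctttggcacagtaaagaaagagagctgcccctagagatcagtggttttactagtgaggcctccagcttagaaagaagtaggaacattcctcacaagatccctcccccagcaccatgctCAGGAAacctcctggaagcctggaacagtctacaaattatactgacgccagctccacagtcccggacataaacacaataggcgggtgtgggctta
The table held a promoter for 19 of the 35 genes. A gene with several entries in the table was counted for a motif when the 250 bases of any entry held it. Entries per gene were not compared between the 19 genes and all genes. Searched on both strands, CAGGAA was held in this way by 12 of these 19 genes (63.2%), while 28.3% of the 27025 genes in the table held it. Among the 4 shown, Cd34 and Emcn held it at 2 places each, Clec14a at 1 and Cldn5 at 0. So it was present both before genes that fell and before one that rose, and 8 of the 12 genes that fell and had a promoter in the table held it. The other motifs searched overlap it or each other in part. GGAAG was in 17 of the 19 genes against 66.9% of all, CAGGAAG in 7 against 12.1%, and ACAGGAA in 6 against 8.13%. For SOX factors ACAAT was in 7 against 30.9% and AACAAT in 3 against 10.9%. For GATA factors GATAA was in 2 against 25.5%, and for KLF factors CACCC was in 13 against 54.5%. A match is a description of these letters and was not tested.

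Among the other receptors and surface proteins, Plvap, which forms the diaphragms of fenestrated endothelium, stood farthest below day 0. Its 3 replicate 1 arrays at day 0 read 8.02 (early), 7.55 (intermediate) and 7.90 (late), and replicate 2 read 6.47, 6.61 and 6.45. The day 1 control arrays read 4.23 to 4.38, and the day 2 control arrays 4.26 to 4.48. All culture levels were close to the floor of 4. The difference between days 1 and 0 was -2.86 ± 0.23 (SE), which is 0.138 of the day 0 level on the signal + 16 scale. Against replicate 2 of day 0 alone it was -2.20 ± 0.14, and against replicate 1 alone -3.52 ± 0.14.

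Cd93, a lectin-like receptor found on endothelial and myeloid cells, fell by 1.22 on the log2 scale (SE 0.20), from 5.65 to 6.84 down to 4.54 to 5.29. Ramp2, the accessory protein that makes the calcitonin receptor-like receptor bind adrenomedullin, fell by 1.02 on the log2 scale (SE 0.21), from 6.92 to 8.11 down to 6.09 to 6.83. Robo4, an endothelial member of the roundabout receptors, fell by 0.77 on the log2 scale (SE 0.18). In all 3 the day 0 arrays lay above the day 1 control arrays. Against replicate 1 and replicate 2 of day 0 taken singly, the differences were -1.65 and -0.78 for Cd93, -1.49 and -0.55 for Ramp2, and -0.90 and -0.64 for Robo4. Gpr4, a proton-sensing receptor (0.21 ± 0.18), and Ecscr, an endothelial chemotaxis regulator (0.18 ± 0.25), did not pass the threshold, nor did Eng. The brightest probe set of Eng read 5.89 to 6.87 (median 6.62) at day 0 and 6.02 to 7.65 (median 6.63) at day 1. Its other probe set read 4.41 to 6.13 (median 5.69) and then 5.89 to 6.54 (median 6.23).

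Clec14a, a C-type lectin of endothelial cells, went the other way. It read 5.40 to 6.05 (median 5.81) at day 0 and 6.82 to 7.98 (median 7.43) at day 1 in control medium. No array overlapped, and Clec14a rose by 1.61 on the log2 scale (SE 0.22, limma adjusted p = 6.85e-06). Its other probe set rose by 1.65 on the log2 scale (SE 0.21). Replicate 2 and replicate 1 of day 0 gave near values here, with rises of 1.73 ± 0.29 and 1.48 ± 0.29.

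**Figure D3:**
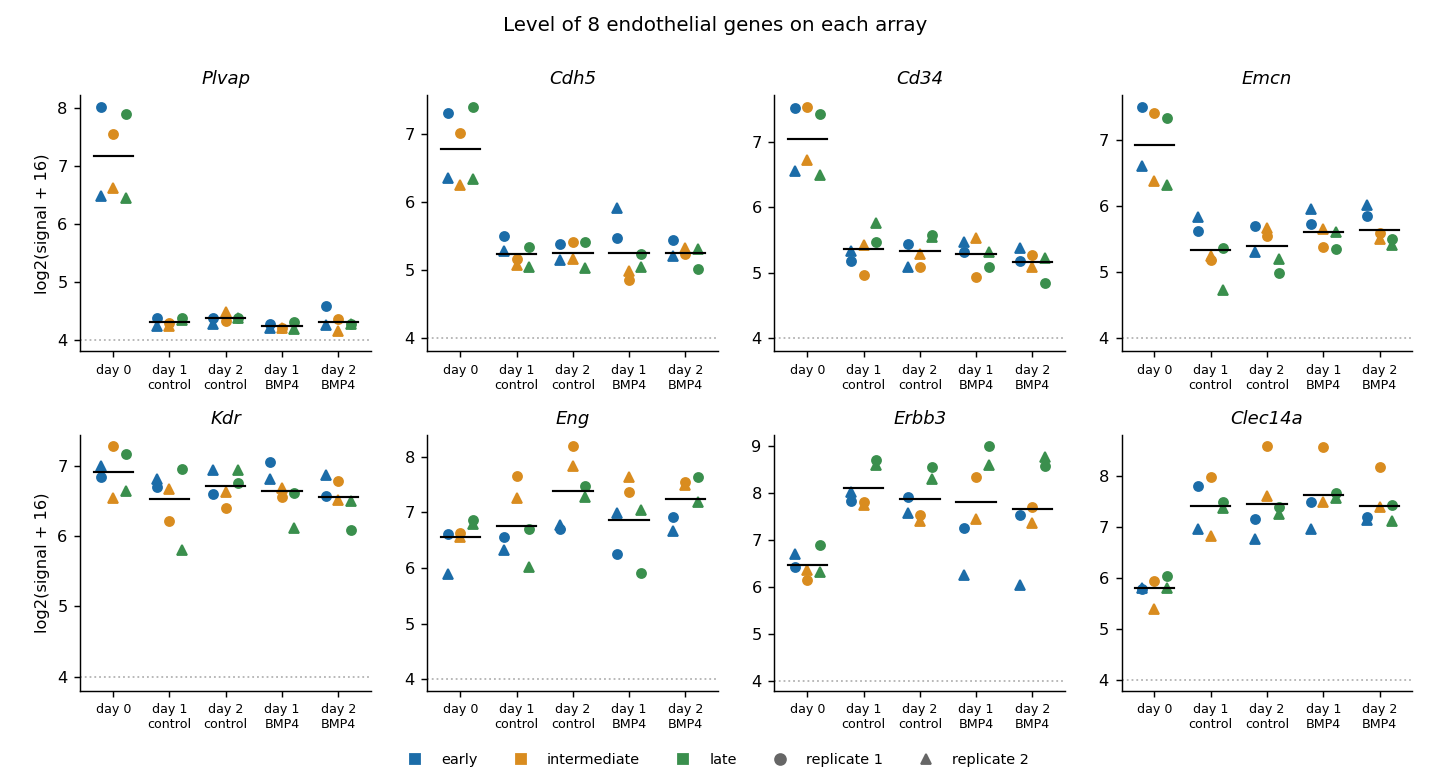
Level of 8 endothelial genes on each array, as log2(signal + 16), by day and medium. Colours are populations, symbols are replicates, black bars are means of 6 arrays and the dotted line is the floor of the scale at 4. Plvap, Cdh5, Cd34 and Emcn are separated between day 0 and all culture arrays, Kdr overlaps throughout, and Erbb3 and Clec14a are higher in control cultures than at day 0.

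The receptor tyrosine kinases did not move as a group. Tek, the angiopoietin receptor, read 5.82 to 6.64 (median 6.35) at day 0 and 5.00 to 5.90 (median 5.36) at day 1, a fall by 0.96 on the log2 scale (SE 0.18, limma adjusted p = 0.00023). Flt4, the VEGF-C receptor, fell by 0.81 on the log2 scale (SE 0.15). Tie1, the orphan partner of Tek, exceeded the 40th percentile on 2 of the 6 day 0 arrays. There the early arrays read 5.40 and 4.12, the intermediate 4.40 and 4.15 and the late 5.48 and 4.65. Its 6 day 1 control arrays read 4.04 to 4.12, close to the floor, a difference of -0.63 ± 0.18 (SE). It was -1.02 ± 0.14 against replicate 1 of day 0 and -0.23 ± 0.14 against replicate 2, where it did not pass (limma adjusted p = 0.23). Tek differed by -1.21 and -0.70, and Flt4 by -1.06 and -0.56, against replicates 1 and 2.

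Kdr, the main signalling receptor for VEGF-A, stayed well above the floor. It read 6.55 to 7.29 (median 6.93) at day 0, 5.81 to 6.96 (median 6.69) at day 1 and 6.41 to 6.94 (median 6.70) at day 2. The arrays overlapped, and the difference between days 1 and 0 did not pass the threshold (-0.39 ± 0.18 SE, limma adjusted p = 0.0887). Against replicate 1 of day 0 alone Kdr fell by 0.57 on the log2 scale (SE 0.21, limma adjusted p = 0.0425). Flt1, a VEGF receptor that also acts as a decoy, read 5.53 to 6.75 at day 0 and 6.01 to 6.77 at day 1 (difference 0.41 ± 0.19 SE, limma adjusted p = 0.0835). A second Flt1 probe set rose by 0.55 on the log2 scale (SE 0.19, adjusted p over all probe sets = 0.0266), and the other pair gave 0.19 and 0.03 without passing.

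Erbb3, a neuregulin receptor best known from neural crest and Schwann cells, was the second gene that rose. Its day 0 arrays read 6.15 to 6.90 (median 6.40) and its day 1 control arrays 7.75 to 8.70 (median 7.92), a rise by 1.64 on the log2 scale (SE 0.21, limma adjusted p = 2.48e-06) with no overlap. Its other probe set stayed between 4.31 and 4.83. Of 6 Schwann and neural crest markers tested, Cdh19 and Dhh rose, by 0.53 and 0.65 on the log2 scale, and Tfap2a fell by 1.55 on the log2 scale. Sox10, the defining factor of that lineage, read 6.58 to 7.41 at day 0 and 6.78 to 7.46 at day 1. The summed signal of the 6 markers was 485 to 632 at day 0 and 281 to 461 at day 1. Their part in the rise of Erbb3 was not tested.

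Of the transcription factors, Lmo2, a LIM-domain partner of Tal1 that limb mesenchyme also expresses, read 8.25 to 10.06 (median 8.48) at day 0 and 6.78 to 8.15 (median 6.97) at day 1, a fall by 1.68 on the log2 scale (SE 0.22, limma adjusted p = 3.04e-06) without overlap. Tal1, a bHLH factor of blood and endothelial precursors, fell by 1.05 on the log2 scale (SE 0.22). The SOXF factor Sox7 fell by 0.97 (SE 0.19) on the log2 scale and Sox18 by 0.64 (SE 0.21). Against replicates 1 and 2 of day 0 taken singly, the differences were -1.56 and -0.54 for Tal1, -1.35 and -0.59 for Sox7, and -0.97 and -0.31 for Sox18, which did not pass against replicate 2 (limma adjusted p = 0.335). Sox17 differed by -0.35 ± 0.17 (limma adjusted p = 0.109), and by -0.63 and -0.06 against replicates 1 and 2, with the first past the threshold (limma adjusted p = 0.0114). Another Sox17 probe set did pass, with a fall by 1.55 on the log2 scale (SE 0.21, adjusted p over all probe sets = 6.54e-06), so the probe sets of Sox17 disagree in the call.

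One of the 3 scavenger and lymphatic receptors fell. Lyve1, the hyaluronan receptor of lymphatic endothelium and some macrophages, read 4.93 to 5.31 at day 0 and 4.50 to 5.14 at day 1 (difference -0.21 ± 0.15). Stab2, a hyaluronan scavenger receptor of sinusoids, differed by -0.13 ± 0.12, and neither gene passed the threshold. Stab1, a related receptor also made by macrophages, fell by 0.65 on the log2 scale (SE 0.17), a call that was lost against replicate 2 of day 0 alone (limma adjusted p = 0.0561). The 13 macrophage markers summed to 742 to 1120 at day 0 and 771 to 1138 at day 1.

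The secreted, matrix and cytoplasmic proteins tested all fell. Egfl7, a secreted protein of endothelial matrix, fell by 0.33 on the log2 scale (SE 0.11, limma adjusted p = 0.0219) and Mmrn2, an endothelial matrix glycoprotein, by 0.42 (SE 0.13, limma adjusted p = 0.0165). Rasip1, which vessels need to form a lumen, fell by 0.98 (SE 0.18), Nos3, the endothelial nitric oxide synthase, by 0.77 (SE 0.14), and She, an SH2-domain adaptor, by 0.48 (SE 0.12), all on the log2 scale. Against replicates 1 and 2 of day 0 taken singly, the differences were -1.30 and -0.67 for Rasip1, -0.95 and -0.60 for Nos3, and -0.64 and -0.32 for She. Sox18, Tie1, Egfl7, Mmrn2, Stab1 and She each lost the call under at least 1 other choice of arrays or processing. Of the other 20 calls, 15 held under every choice tried, among them Plvap, whose fall was fixed by the filter. The remaining 5, of Pecam1, Icam2, Robo4, Rasip1 and Nos3, held wherever they were tested but were removed by a filter at the 60th percentile.

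Several endothelial genes had more than 1 probe set. Among the 26 called genes, 11 other probe sets were kept by the filter. All 11 shared the direction, 5 passed the threshold in that direction and 0 passed in the opposite one.

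From day 1 to day 2 of control culture the low levels changed little. Of the 34 genes 0 fell and 2 rose, where 2.94% of all genes fell and 5.61% rose, and 3 endothelial genes had an unadjusted p under 0.05. Here and below, counts under an unadjusted p cover the endothelial genes alone, and the share of all genes was not counted. Eng, endoglin, a co-receptor for BMP9 and TGF-beta ligands that mesenchymal cells also make, read 6.02 to 7.65 at day 1 and 6.70 to 8.19 at day 2. It rose by 0.62 on the log2 scale (SE 0.18, limma adjusted p = 0.035), although the arrays overlapped. She read 5.61 to 6.24 at day 1 and 6.25 to 6.63 at day 2, so the groups did not overlap, and rose by 0.41 on the log2 scale (SE 0.12, limma adjusted p = 0.0426). Neither call was made after median centring or quantile normalization. Both were made without intermediate or late replicate 1 of day 1, and 0 or 1 without any other single array of the 12 compared. The median difference of the 34 genes was 0.02.

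Against day 0, day 2 control cultures gave 23 falls and 3 rises as a mean of the 3 populations, where 21.5% of all genes fell and 26.9% rose. The falls include Plvap, Tie1 and Icam2, which were tested only through day 0, so that their falls were fixed by the filter. Egfl7 (-0.10 ± 0.11) and She (-0.07 ± 0.12) no longer passed, and Sox17 now did, with a fall by 0.48 on the log2 scale (SE 0.17, limma adjusted p = 0.021). Eng rose by 0.82 on the log2 scale (SE 0.18), beside Clec14a (1.66 ± 0.22) and Erbb3 (1.41 ± 0.21). Plvap (-2.80 ± 0.23), Cd34 (-1.71 ± 0.19), Cdh5 (-1.53 ± 0.19), Esam (-1.41 ± 0.16), Sox7 (-1.30 ± 0.19) and Pecam1 (-1.12 ± 0.17) were again lower. These comparisons share the day 0 arrays with the first one. Against replicate 2 of day 0 alone 16 fell and 3 rose (18.5% and 24% of all genes), and against replicate 1 alone 23 fell and 3 rose (17.4% and 23.6%).

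By population, the same comparison of day 2 with day 0 rests on 2 arrays on each side, and one day 0 array of each pair went against its label. In the early population 15 endothelial genes fell and 2 rose (9.31% and 14.8% of all genes). The intermediate population gave 13 falls and 5 rises (12.7% and 17.6% of all genes), and the late one 18 falls and 2 rises (10.6% and 16.9% of all genes). Any fall of Plvap, Tie1 or Icam2 in these counts was fixed by the filter. Erbb3 and Clec14a rose in each population, and Flt1, Eng and Gpr4 rose in the intermediate population as well. Leaving out replicate 1 of the day 0 group left 8, 7 and 10 calls in the early, intermediate and late populations, and leaving out replicate 2 left 18, 17 and 19. For the intermediate population, leaving out replicate 1 of its day 2 group left 11.

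The second question was whether BMP4 changed the endothelial genes. As a mean of the 3 populations at day 1, 1 of the 34 genes passed the threshold, where 6.3% of all genes did in either direction. That gene was Flt1. The control arrays read 6.01 and 6.36 (early), 6.64 and 6.77 (intermediate) and 6.57 and 6.75 (late), and with BMP4 they read 5.64 and 5.89, 6.34 and 6.50, and 4.95 and 5.33. Each pair with BMP4 lay below its control pair. Flt1 fell by 0.74 on the log2 scale (SE 0.19, limma adjusted p = 0.0191). The late population had the widest gap (-1.52 ± 0.32), with a limma adjusted p of 0.0607 on its own, and of 0.0477 and 0.0484 without replicate 2 or replicate 1 of day 0 in the fit. The call in the mean of the populations was lost without control replicate 2 of the early or the late population, or BMP4 replicate 1 of the early or the late population (limma adjusted p from 0.0503 to 0.0621), and with the mean of its probe sets. The 3 other probe sets of Flt1 differed by -0.64, -0.33 and -0.32 and did not pass.

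No other endothelial gene passed at day 1 in the mean of the populations, and 6 in all had an unadjusted p under 0.05. That number cannot be set against the share of all genes given above, which used the adjusted p. Ramp2 differed by 0.62 ± 0.21 (limma adjusted p = 0.0831). Its early arrays read 6.56 and 6.38 in control medium and 7.73 and 7.76 with BMP4, and the late arrays 6.83 and 6.63 against 7.05 and 7.27, while the intermediate arrays overlapped (6.59 and 6.09 against 6.38 and 6.61). In 3 fits that used fewer arrays Ramp2 passed the threshold, with limma adjusted p from 0.016 to 0.0194. Pecam1, Cdh5, Kdr, Tek and Tie1 did not pass in either direction, with Tek at -0.46 ± 0.18 (limma adjusted p = 0.147).

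At day 2 with BMP4, 0 of the 34 genes passed in the mean of the populations by limma, where 1.9% of all genes did, and 4 had an unadjusted p under 0.05. Cd93 came closest among the genes that were higher. Its 6 control arrays read 4.90 to 5.16, and with BMP4 they read 6.11 and 5.79 (early), 5.39 and 5.14 (intermediate) and 5.58 and 5.91 (late), so that 1 intermediate array lay below the highest control array. The difference was 0.69 ± 0.20 (limma adjusted p = 0.0803), and it passed when 3 day 0 arrays were left out of the fit (limma adjusted p = 0.0268 without replicate 2) and in a fit of the compared arrays alone (limma adjusted p = 0.0244). Leaving out control replicate 2 of the intermediate or the early population at day 2 brought 1 call. Egfl7 read 6.86 to 7.66 in control medium and 6.68 to 7.00 with BMP4, a difference of -0.40 ± 0.11 (limma adjusted p = 0.0604). The response at day 2 minus that at day 1 gave 0 calls by limma, with 2 genes under an unadjusted p of 0.05, where 0.0132% of all genes passed.

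**Figure D4:**
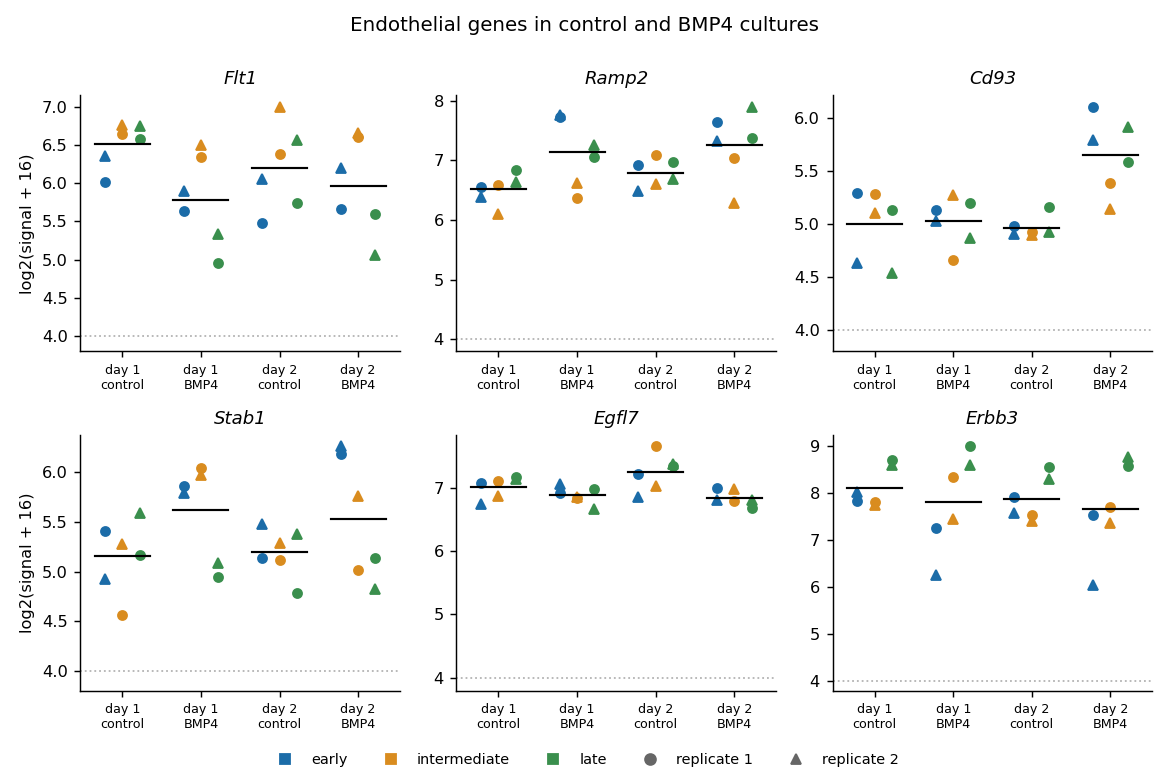
Level of 6 endothelial genes in control and BMP4 cultures at days 1 and 2, as log2(signal + 16), per array. Colours are populations, symbols are replicates, black bars are means of 6 arrays and the dotted line is the floor of the scale. Flt1 is lower with BMP4 at day 1 within each population. Ramp2, Cd93, Stab1 and Erbb3 differ in some populations. These differences did not pass the threshold in the main fit of all 30 arrays, and some passed under other choices.

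In single populations 0 of the 34 genes passed by limma in any of the 6 comparisons of BMP4 with control in the main fit. That fit held all 30 arrays and no replicate number, and some genes passed with the replicate number in it. The shares of all genes that passed were 2.45% and 5.68% for early days 1 and 2, 0.238% and 0.00661% for intermediate, and 0.0793% and 0.0132% for late. Between 1 and 6 endothelial genes had an unadjusted p under 0.05 in each. In the early population Ramp2 differed by 1.28 ± 0.36 at day 1 (limma adjusted p = 0.0661) and by 0.78 ± 0.36 at day 2 (limma adjusted p = 0.223). The day 1 difference passed without replicate 2 of day 0 (limma adjusted p = 0.0113), without replicate 1 of day 0 (limma adjusted p = 0.0116) and in a fit of the compared arrays alone (limma adjusted p = 0.044). Cd93 differed by 1.01 in the early population at day 2 and passed without replicate 2 or replicate 1 of day 0 (limma adjusted p = 0.0356 and 0.0368). Erbb3 was lower there with BMP4 on both days, by -1.16 ± 0.36 (limma adjusted p = 0.103) and -0.96 ± 0.36 (limma adjusted p = 0.131), with BMP4 replicate 2 at 6.26 and 6.05 and replicate 1 at 7.26 and 7.53. The day 2 difference passed after median centring (limma adjusted p = 0.0447). Leaving out BMP4 replicate 1 brought 1 endothelial call in the early population on each day.

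Stab1 differed by 1.09 ± 0.29 in the intermediate population at day 1 (limma adjusted p = 0.142) and by 0.92 ± 0.29 in the early one at day 2 (limma adjusted p = 0.0644), which passed with a pseudocount of 64 (limma adjusted p = 0.0301). In the early population at day 2 it read 5.14 and 5.48 in control medium and 6.18 and 6.27 with BMP4. In the intermediate population at day 1 it read 4.56 and 5.28 in control medium and 6.05 and 5.97 with BMP4. Neither pair overlapped its control pair. In the late population at day 2 the media overlapped, with 4.79 and 5.37 in control medium and 5.14 and 4.83 with BMP4. The groups just named were picked by the values of Stab1, so that macrophage markers went its way in them is a description only. The markers did not go with Cd93 in every group. Of 13 markers, 4 rose at day 1 and 8 at day 2 in the mean of the populations, where 545 and 178 of all 15136 genes rose. Their summed signal was 791 to 882 in early day 2 control cultures and 1988 to 2064 with BMP4. It was 1094 to 1138 against 1656 to 2003 in intermediate day 1 cultures, and 704 to 780 against 730 to 751 in late day 2 cultures. In that late group Cd93 was higher with BMP4 although the sum stayed level. In intermediate day 2 cultures the sum was 822 to 973 against 1680 to 1785. There the highest BMP4 difference of any endothelial gene tested, Stab1 included, was 0.62, although the sum was higher with BMP4. Macrophages express Stab1 and Cd93 too, and the part of these cells in the values of both genes was not tested.

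Differences in the BMP4 response between populations, as a mean of days 1 and 2, gave 0 endothelial calls by limma in each of the 3 pairs. Of all genes 0.78% passed for early minus late, 0.429% for early minus intermediate and 0% for intermediate minus late, and 6, 2 and 4 endothelial genes had an unadjusted p under 0.05. Stab1 had the smallest adjusted p for early minus late (1.02 ± 0.29, limma adjusted p = 0.113), followed by Erbb3 (-1.25 ± 0.36, limma adjusted p = 0.124, and 0.0376 after median centring) and Flt1 (1.04 ± 0.32, limma adjusted p = 0.151). Leaving out replicate 1 of the early day 2 BMP4 group brought 1 call for early minus late and 1 for early minus intermediate.

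The third question was whether the 3 populations differed once in culture. Across the control arrays of days 1 and 2, Eng was lower in early than in intermediate cultures. Early arrays read 6.33 and 6.55 at day 1 and 6.70 and 6.78 at day 2, intermediate arrays 7.26 and 7.65 and then 7.84 and 8.19, and late arrays 6.02 and 6.71 and then 7.29 and 7.48. On each day the intermediate arrays lay above those of the early population. The difference early minus intermediate was -1.15 ± 0.22 (limma adjusted p = 0.0108), and intermediate minus late was 0.86 ± 0.22 (limma adjusted p = 0.0383).

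Lmo2 was the other gene lower in early than in intermediate cultures (-1.21 ± 0.27, limma adjusted p = 0.0281), with early arrays at 6.22 to 6.83 and intermediate arrays at 7.50 to 8.15. Tek was higher in intermediate than in late cultures (0.94 ± 0.22, limma adjusted p = 0.0217), with intermediate arrays at 5.57 to 6.42 and late arrays at 4.45 to 5.50. Thus 2 of the 34 genes passed for early against intermediate, where 0.852% of all genes did, and 2 passed for intermediate against late, where 2.64% did. For early against late 0 passed by limma, where 1.48% of all genes did, and 5 endothelial genes had an unadjusted p under 0.05. The calls of Eng, Lmo2 and Tek rest on few arrays. For early against intermediate 0 remained without intermediate replicate 1 of day 1 or day 2, early replicate 2 of day 1 or early replicate 1 of day 2, and 1 remained without early replicate 1 of day 1 or intermediate replicate 2 of day 2. For intermediate against late 0 remained without late replicate 2 of day 1, intermediate replicate 1 of day 2 or late replicate 1 of day 2, 1 remained without either intermediate array of day 1 or replicate 2 of either population at day 2, and 3 were called without late replicate 1 of day 1. For that pair Eng also lost the call with a pseudocount of 1, without the filter, after median centring or quantile normalization, and with the mean of its probe sets. Tek lost it with a pseudocount of 1 and in a fit of the compared arrays alone. Lmo2, not called for that pair in the main fit, passed under some choices. Among these were quantile normalization (limma adjusted p = 0.0486) and a fit of the compared arrays alone (limma adjusted p = 0.0212).

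**Figure D5:**
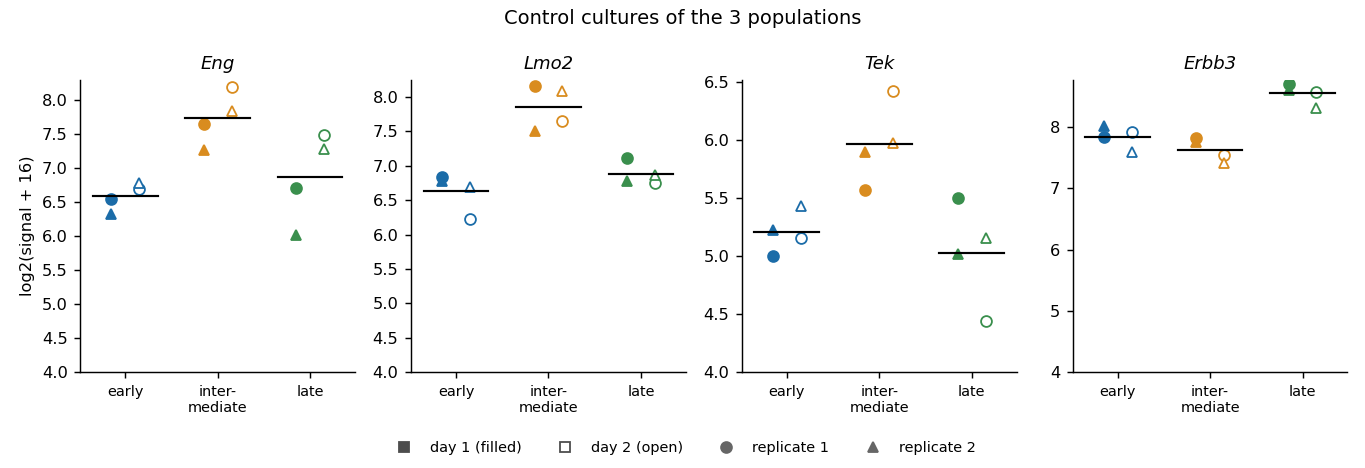
Level of Eng, Lmo2, Tek and Erbb3 in control cultures of the 3 populations, as log2(signal + 16), with day 1 filled, day 2 open, symbols for replicates and black bars for the mean of 4 arrays. Eng, Lmo2 and Tek are highest in intermediate cultures. Erbb3 is highest in late ones, with adjusted p of 0.0608 against intermediate and 0.296 against early in limma. Intermediate against late passed under some other choices, such as a pseudocount of 64 (limma adjusted p = 0.024). In a fit of the compared arrays alone Erbb3 passed against intermediate (limma adjusted p = 0.0016) and against early (0.0146), the latter under that choice only.

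Genes outside the 35 were counted by list for day 1 against day 0 in control medium, where 17% of all genes fell and 22.5% rose. The lists were not tested as sets against these shares. Of 22 further endothelial surface and signalling genes 7 fell and 4 rose. Aplnr, the apelin receptor of venous and sprouting endothelium, fell by 2.96 on the log2 scale (SE 0.32), from 6.64 to 8.67 down to 4.18 to 5.03, while Bmper, a secreted BMP-binding protein, rose by 2.51 (SE 0.14) and Cd36, a fatty acid and thrombospondin receptor, by 1.08 (SE 0.15). Of 16 Notch and arterial or venous genes 5 fell and 1 rose. The falls included Nrp2, a co-receptor for VEGF and semaphorins (-0.91 ± 0.18), Nr2f2, a venous identity factor (-0.74 ± 0.15), and Notch4 (-0.81 ± 0.19). Of 18 further endothelial transcription factors 6 rose and 4 fell. Foxc1 (2.82 ± 0.24), Foxc2 (2.56 ± 0.29) and Mef2c (2.05 ± 0.17), which mesenchyme also expresses, rose, and Klf4 (-1.81 ± 0.18) fell.

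Ligands that act on endothelium were split, with 5 of 13 that rose and 5 that fell at day 1, where 22.5% of all genes rose and 17% fell. Vegfa, the ligand of Kdr and Flt1, went from 9.02 to 9.41 down to 7.85 to 8.54 (-0.92 ± 0.12), and Vegfd fell by 1.11 on the log2 scale (SE 0.21). Cxcl12, a chemokine of perivascular stroma, rose by 1.83 on the log2 scale (SE 0.15) and Sema3e, a repulsive cue for plexin D1, by 2.73 (SE 0.25). With BMP4, Vegfa was lower than in control medium on both days (-0.45 ± 0.12 at day 1 and -0.51 ± 0.12 at day 2, limma adjusted p = 0.0244 and 0.0243), as was Cxcl12 (-1.33 ± 0.15 and -0.73 ± 0.15). Angpt2, an antagonistic ligand of Tek, rose at day 1 (0.88 ± 0.18), and so did Pgf, a ligand of Flt1 (0.70 ± 0.17).

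Markers of other cell types moved between day 0 and day 1 as well, where 17% of all genes fell and 22.5% rose. Of 10 red blood cell markers 9 fell, among them Hbb-bh1, an embryonic globin (-7.02 ± 0.29). The summed signal of the 10 markers at day 1 was 162 to 375. Hbb-bh1 and the red cell genes Hemgn, Slc4a1 and Alas2 stayed below the filter's percentile on every culture array. They were tested only through day 0, so their falls were fixed by the filter and are descriptions. Any such falls among the 9 are not test results. Of 9 pericyte and mural cell markers 3 rose and 0 fell, among them Tagln (5.76 ± 0.18) and Acta2 (4.14 ± 0.09), contractile genes that cultured mesenchyme also expresses. Of 10 ectoderm markers 4 fell, among them Cdh1 (-1.82 ± 0.27).

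Over the 30 arrays, the genes outside the list whose levels were most like the mean of the 8 core endothelial genes were Klhl4, Aplnr and Hba-x (Pearson r = 0.946 each), then Hbb-bh1 (0.929), Hemgn (0.928), Col18a1 (0.923), Atxn2l (0.919), Slc4a1 (0.919), Fosb (0.901) and Alas2 (0.898). Hba-x, Hbb-bh1, Hemgn, Slc4a1 and Alas2 are red cell genes. All arrays share the step between day 0 and culture, so these values describe that step. Among the endothelial genes, the r of Cdh5 with the other core genes was 0.95 over 30 arrays and 0.49 over the 24 arrays of days 1 and 2, and that of Plvap was 0.95 and 0.18. For Cd34 the values were 0.92 and 0.06, and for Mmrn2 0.72 and 0.71.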

How the data were processed

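Gene expression was measured on 30 Affymetrix Mouse 430 2.0 arrays, 1 per culture sample. The deposited values are linear signal intensity made with MAS5, per the submitters' processing notes. No source used here gives its settings. Every array has a 2% trimmed mean of 150, which shows that the authors' intensity values were scaled before deposit. The median signal per array was 33.9 to 46.4. No detection calls were used, and the number of arrays limits the precision.

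Here values were used as log2(signal + 16). A probe set was kept when above its array's 40th percentile on at least 2 arrays. Of 45101 probe sets, 34945 had 1 gene symbol in the platform annotation, 932 several and 9160 none, and 34741 matched a RefSeq gene table. The brightest kept probe set stood for each of 15136 genes. One limma 3.58.1 fit in R 4.3.3 held the 15 group means of 30 arrays (15 residual degrees of freedom), with a mean-variance trend, no replicate block and Benjamini-Hochberg adjustment over all genes, at 0.05, two-sided, for 21 comparisons. Counts for other probe sets were adjusted over all kept probe sets. The steps were tested on simulated data.

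The 35 genes, the other lists and the tests were chosen with earlier results of these data known. The text names each of the 35 genes at least once, up to 8 per direction that passed in a comparison, always Pecam1, Cdh5, Kdr, Tek, Tie1 and Erbb3, up to 4 genes per other list with the smallest adjusted p, and the 10 genes most like the core. Sox10 and the doubted-array genes are named beyond that rule, after their values were seen. Alternatives were the pseudocount, the filter, the scaling, the probe sets, the trend, the arrays used and the replicate block. Promoters came from RefSeq on GRCm38.p6.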

Additional observations from a re-analysis of the deposited data

How the results depend on the processing

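With the replicate number in the fit (replicate block), counts of endothelial calls moved by over 1.5 times to 2 for BMP4 at day 1 and 2 at day 2 in the mean of the populations, 2 for BMP4 in early day 1, 2 for early day 2, 1 for late day 1, 4 for intermediate against late and 1 for the early minus late response. The calls gained were Ramp2 at day 1 (limma adjusted p = 0.0285) and Cd93 and Egfl7 at day 2 (0.0312 and 0.0376) in the mean of the populations, Ramp2 and Erbb3 in early day 1 (0.0183 and 0.0417), Cd93 and Stab1 in early day 2 (0.0419 and 0.049), Flt1 in late day 1 (0.0365) and Erbb3 for the early minus late response (0.0475). For intermediate against late the calls gained were Erbb3 and Lmo2 (limma adjusted p = 0.0198 and 0.0425). The labels do not say what a number shares. Deviations of same-numbered arrays correlated above 0.1 in 60 of 105 pairs of groups (lowest -0.125, median 0.121, highest 0.349). All pairs of groups had to do so for the numbers to be treated as pairs, so the fit without the block is the one reported. That rule was strict and took in the doubted day 0 arrays, so missing it does not show that the numbers share nothing. Without the 3 doubted day 0 arrays the calls were 2 for BMP4 at day 1, 1 at day 2, and 1 each for early day 1, early day 2 and late day 1. Without the 3 replicate 1 arrays of day 0, added after seeing the data, these 5 counts were also 2, 1, 1, 1 and 1, and day 2 against day 0 gave 10, 10 and 13 calls in the early, intermediate and late populations. In fits of only the compared arrays the counts were 1 for day 2 against day 1, 2 for BMP4 at day 1, 1 at day 2, 1 for early day 1 and 1 for early against late (Erbb3). For day 2 against day 1, no filter left 1, median centring 0, quantile normalization 0 and the mean of probe sets 1. The mean of probe sets left 0 for BMP4 at day 1. A pseudocount of 64 and median centring gave 1 each for early day 2, a pseudocount of 64 left 1 for early against intermediate, and median centring gave 1 for the early minus late response. For intermediate against late a pseudocount of 1 left 0, no filter 1 and the mean of probe sets 1. Leaving out 1 array at a time gave 24 to 27 calls for day 1 against day 0, 0 to 2 for day 2 against day 1 and 25 to 26 for day 2 against day 0. By population this last comparison gave 8 to 18 (early), 7 to 17 (intermediate) and 10 to 19 (late). BMP4 gave 0 to 1 in the mean of the populations on either day and in the early population on either day, early against intermediate 0 to 2, intermediate against late 0 to 3, and the early minus late and early minus intermediate responses 0 to 1. Over endothelial genes called in the main fit, 2020 values kept their direction and call, 234 lost the call and 0 reversed. Fits without the trend, with the replicate block or of the compared arrays alone leave the difference unchanged, so none could reverse there. The values include falls of Plvap, Tie1 and Icam2, fixed by the filter, and repeat the same genes over overlapping arrays. Dim genes near the floor of 4 limit what could be measured in culture.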
